A study of Drosophila melanogaster with 3 samples.

Results

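Intergenic anti-GFP peaks of svp-eGFP flies were described as the peaks whose summit lay outside every annotated gene, transposable elements and non-coding genes included, and more than 500 bp from the transcription start site (TSS) of every protein-coding gene. They numbered 901 of the 5425 summits on the chromosome arms, or 16.6% (exact 95% interval 15.6 to 17.6), in a combined list of 5443 peaks. That list, made by the authors from all 3 replicates and kept at a threshold of the irreproducible discovery rate (IDR), holds coordinates of the dm6 build. Chromatin was taken from whole animals, males and females pooled, at the white prepupa stage, when the larva has just stopped moving and metamorphosis starts. All came from 1 transgenic line with GFP at the C-terminus of svp, the labels give their age as unknown, and the 3 libraries are biological replicates of 1 group after sonication and anti-GFP immunoprecipitation. A sample without GFP is not among those used, so binding by svp and other uptake by the antibody cannot be told apart, and whole animals mix all tissues.

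The protein svp is the fly member of the COUP-TF family of orphan nuclear receptors, which bind DNA through a pair of zinc fingers at copies of the half-site AGGTCA and mostly repress transcription. It is known from the choice of photoreceptor identity in the eye, from the timing of neuroblast divisions and from the heart, fat body and Malpighian tubules. Intergenic DNA of the fly holds many enhancers, which can lie far from the gene they act on and beyond a nearer one, so the genes that flank a peak are its neighbours and not its known targets.

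The sequences below show the summit windows, 50 bp on each side of the summit, of 6 of the 7 highest intergenic peaks with the nuclear receptor half-site; the sequence of the sixth by signal, beside 18w (346), is not shown. Capitals mark AGGTCA, or TGACCT where the half-site is on the other strand, and the sequence is the plus strand of release 6 from RefSeq, which is dm6. They lie at chr3L:8698627-8698727 between hry and SrpRbeta, chr2L:4887798-4887898 between CG3008 and CG15625, chr3L:781271-781371 between hng3 and CG13898, chr3L:3241247-3241347 between CG17746 and CG12078, chr3R:21838596-21838696 between the gustatory receptor genes Gr93a and Gr93b, and chr3L:95882-95982 between CG13405 and CG12483. Their signal values in the combined list were 779, 668, 651, 534, 473 and 316. The window by hry, which encodes the repressor hairy, and the windows by CG3008 and CG13405 also held a GATA site (AGATAA or TGATAA on either strand).
hry/SrpRbeta: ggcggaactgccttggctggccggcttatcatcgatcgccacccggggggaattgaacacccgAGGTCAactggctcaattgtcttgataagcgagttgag
CG3008/CG15625: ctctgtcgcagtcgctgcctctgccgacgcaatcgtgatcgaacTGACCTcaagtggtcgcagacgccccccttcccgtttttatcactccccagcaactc
hng3/CG13898: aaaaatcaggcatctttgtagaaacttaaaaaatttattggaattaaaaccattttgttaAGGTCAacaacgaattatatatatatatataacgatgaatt
CG17746/CG12078: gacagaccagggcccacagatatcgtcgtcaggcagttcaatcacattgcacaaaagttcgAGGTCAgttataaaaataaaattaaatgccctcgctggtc
Gr93a/Gr93b: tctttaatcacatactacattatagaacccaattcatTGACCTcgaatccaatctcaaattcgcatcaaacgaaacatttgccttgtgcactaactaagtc
CG13405/CG12483: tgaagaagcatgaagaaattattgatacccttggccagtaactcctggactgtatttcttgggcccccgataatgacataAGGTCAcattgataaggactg

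The summit windows of the 20 highest intergenic peaks held no half-site, where 3.22% of all 901 intergenic summit windows and 5.35% of those of all arm summits did. Windows of 20 peaks are too few to tell this apart from either share. A GATA site was in 1 of the 20, where 20.8% of all 901 windows held one. The parts of the peaks outside these windows were not counted. The windows of 3 of the highest are shown for comparison, with no capitals because no half-site was present. They lie at chr3R:29214394-29214494 between Cyt-c1L and eEF1gamma, chr2L:2202363-2202463 between COX7AL2 and CG31668, and chr3L:10776522-10776622 between CG43245 and CG12523, with signal values of 2269.6, 2139.9 and 1827. The second is 25.7% G or C and the third of 28.7%, against 39.6% in the first.
Cyt-c1L/eEF1gamma: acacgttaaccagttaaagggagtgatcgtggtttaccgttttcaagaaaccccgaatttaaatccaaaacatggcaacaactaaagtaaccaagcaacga
COX7AL2/CG31668: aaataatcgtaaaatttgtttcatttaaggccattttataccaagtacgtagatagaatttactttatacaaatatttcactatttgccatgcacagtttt
CG43245/CG12523: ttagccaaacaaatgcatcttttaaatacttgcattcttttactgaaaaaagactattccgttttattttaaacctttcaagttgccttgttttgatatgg

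The highest intergenic peaks were near the top of every replicate's own list. They were chosen by signal in the list made from these same replicates, so high ranks are in part set by that choice. Between Cyt-c1L, which encodes a cytochrome c1-like protein, and the translation elongation factor gene eEF1gamma, the peak at chr3R:29214183-29214637 had signal values of 733, 841 and 697 in replicates 1, 2 and 3. Those values put it at ranks 16, 12 and 11 of 30000, so that the replicates hardly differed in its place. Its summit was 5728 bp from the nearest protein-coding TSS but 1141 bp from the start of mir-279, a microRNA gene known for its part in the formation of olfactory neurons. The peak in the gap between Su(z)2, a relative of a Polycomb group gene, and CG13323 had ranks 15, 14 and 22. Between COX7AL2, which encodes a protein like a cytochrome c oxidase subunit, and CG31668 the peak had ranks 24, 16 and 12. Between CG43245 and CG12523 it had ranks 29, 34 and 26. After these 4, ranks in the replicates were spread more widely.

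The next 5 peaks by signal lay 597 to 14791 bp from the nearest TSS. The peak between CG9630 and ato, the proneural gene of chordotonal organs and of the first photoreceptor, had signal values of 311, 620 and 316 in the 3 replicates and a combined value of 1237. Between noc, a zinc finger gene, and CG33648 the values were 289, 574 and 340, and between Rh5, which encodes a blue-sensitive opsin, and Wdr81 they were 275, 590 and 324. In these 3 peaks replicate 2 had the best rank (44, 53 and 50). The peak between CG9300 and Shal, a voltage-gated potassium channel gene, had 351, 370 and 337, and the one between ds, an atypical cadherin gene of planar cell polarity, and Hsp60B had 386, 371 and 284. A second peak between COX7AL2 and CG31668 reached 991. Flanking genes of the rest were CG43336 and pxb, CG16898 and CG46443, hng3 and CG13898, CG3092 and yip3, NijA and CG43245, CG34460 and Ugt37C1, mtSSB and tara, CG3149 and AdamTS-B, Sol1 and Cyp9f2, and CG7573 and CG6168, with combined values of 1016 down to 839.7. The 20 peaks lay in 19 gaps, the poorest rank of any of them in any replicate was 367, 6 were within 2000 bp of a TSS and 5 were more than 10000 bp away.

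**Figure D1:**
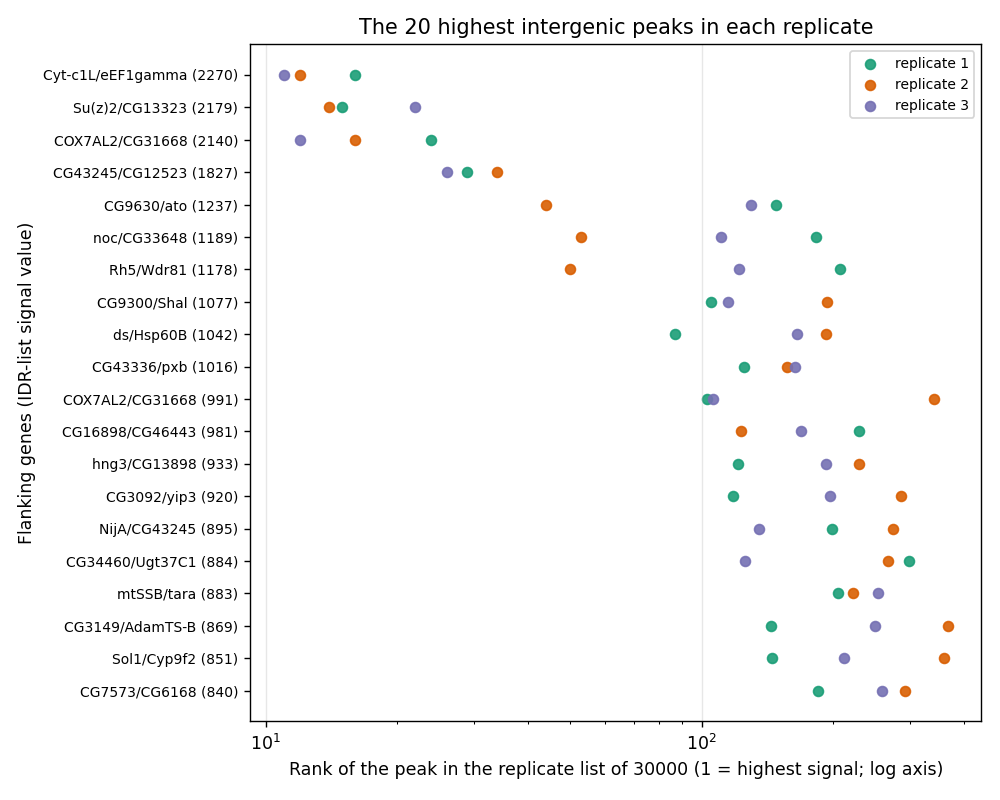
Rank of each of the 20 highest intergenic peaks (rows, named by the flanking genes, with the signal value in the combined list) in the list of each replicate, on a log axis where 1 is the highest signal. The upper 4 peaks sit between ranks 11 and 34 in every replicate, and no point lies beyond rank 367.

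Over all 901 peaks, the lowest signal value in the combined list was 120.0, the median 204 (quartiles 154 and 314) and the highest 2269.6, and the median width was 456 bp. The median signal was 212 for the 2395 summits in introns more than 500 bp from a TSS and 240 for the 1774 promoter summits, those within 500 bp of a protein-coding TSS. The signal value is the authors' own measure, and it served to order peaks of 1 list and not to compare lists. The 16 members that lay 501 to 550 bp from a TSS had a median signal of 242, and the 20 summits outside genes at 451 to 500 bp, just too close to count, had 161. The 901 summits came from 897 distinct intervals. In the top 5000 peaks of each replicate, intergenic summits made up 18.6% in replicate 1, 14.1% in replicate 2 and 16.0% in replicate 3, a mean of 16.2% ± 2.26 (SD, n = 3).

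Support by a replicate means here that a peak among its top 5000 by signal covered the summit. Of the intergenic summits, 524 (58.2%, exact 95% interval 54.9 to 61.4) were supported by all 3 replicates, 230 by 2, 136 by 1 and 11 by none, where 56.7% of all arm summits had the support of all 3. The intergenic share depended on the rule: it was 90.6% with the top 10000 peaks of each replicate, 94.5% with all 30000 and 42.5% where the peaks had to overlap by 50% of both. Against 56.4% of the other arm summits the odds ratio was 1.07 (two-sided Fisher's exact test over summits, adjusted p = 0.339), and against 56.2% of intronic summits it was 1.08 (adjusted p = 0.339). Support by none was found for 1.22% of intergenic and 2.52% of other summits (exact test as above, adjusted p = 0.0593). The result turned on single replicates: replicates 1, 2 and 3 supported 87.6%, 73.3% and 79.8% of intergenic summits, against 78.3%, 78.9% and 79.7% of the others. With replicate 1 left out the odds ratio against other summits was 0.825 (exact test, unadjusted p = 0.0120), and with replicate 2 left out it was 1.41 (unadjusted p = 1.85e-05). It was 1.94 with the top 10000 peaks, 2.58 with all 30000 and 2.79 among summits above the list's median signal, so the direction and the call differed between these settings. Peaks are not replicates, and p-values over summits measure only the spread over summits of 1 combined list.

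Intergenic summits lay more densely close to a protein-coding TSS than far from one, per base of the DNA where such a summit could fall. That DNA lies outside genes and more than 500 bp from a TSS, 35.7 Mb in all, with no account of how well reads map there. It includes 2.39 Mb on Y, with 0 summits, and 1.65 Mb at the ends of arms, with 1. At 501 to 2000 bp from the nearest TSS there were 233 summits, or 43.8 per Mb of the 5.32 Mb available. Above 2000 and up to 10000 bp there were 420, or 30.9 per Mb of 13.6 Mb, and above 10000 bp there were 248, or 14.8 per Mb of 16.8 Mb. In the replicates' own top 5000 peaks the density was 39.6 ± 2.77 per Mb in the nearest class, 28.1 ± 4.46 in the middle class and 13.0 ± 2.41 in the farthest (mean ± SD, n = 3). The order was the same in 3 of 3 replicates, and the ranges of the classes did not overlap. The median distance was 4872 bp (quartiles 1948 and 10789).

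Signal and support were close in value across the distance classes. Median signals were 208 in the nearest, 207 in the middle and 185 in the farthest class, and support by all 3 replicates was 55.4%, 60.5% and 56.9%. Their exact 95% intervals for support overlapped (48.7 to 61.9, 55.6 to 65.2 and 50.4 to 63.1). Of the nearest summits 83.3% lay upstream of the gene with the nearest TSS, of the middle ones 60.7% and of the farthest 43.5%, the others lying past its 3′ end. Of the DNA where a summit could fall, 78.8%, 59.6% and 53.2% lay upstream in the same classes. The differences in side between classes were not tested. The 3 highest peaks of the nearest class were those by ds (1042), COX7AL2 (991) and CG13898 (933). In the middle class they were those by Cyt-c1L, COX7AL2 and CG43245, and in the farthest class those by Su(z)2 (2179), noc (1189) and pxb (1016). The summit farthest from any TSS lay 199289 bp upstream of Tim23, a mitochondrial import gene, at the end of arm 2L, with a signal of 151 and the support of 2 replicates. The next were 59537 bp from Cyp12e1, towards hth, a homeobox gene, and 57478 bp from vvl, a POU domain gene.

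By arm, the density was highest on 3L and lowest on X among the 5 large arms. There were 280 intergenic summits on 3L (33.9 per Mb), 208 on 3R (28.3), 185 on 2L (29.6), 140 on 2R (21.6) and 87 on X (17.9), with 1 on chromosome 4 and 0 on Y. The replicates gave 30.7 ± 4.18 per Mb on 3L and 14.6 ± 3.59 on X (mean ± SD, n = 3), with no overlap. Of all summits on an arm, 25.3% were intergenic on 3L and 8.51% on X. Close to a TSS both arms were alike in value, with 51.3 summits per Mb on 3L and 48.4 on X at 501 to 2000 bp. Above 10000 bp there were 25.1 per Mb on 3L and 6.07 on X. These differences between arms were not tested.

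**Figure D2:**
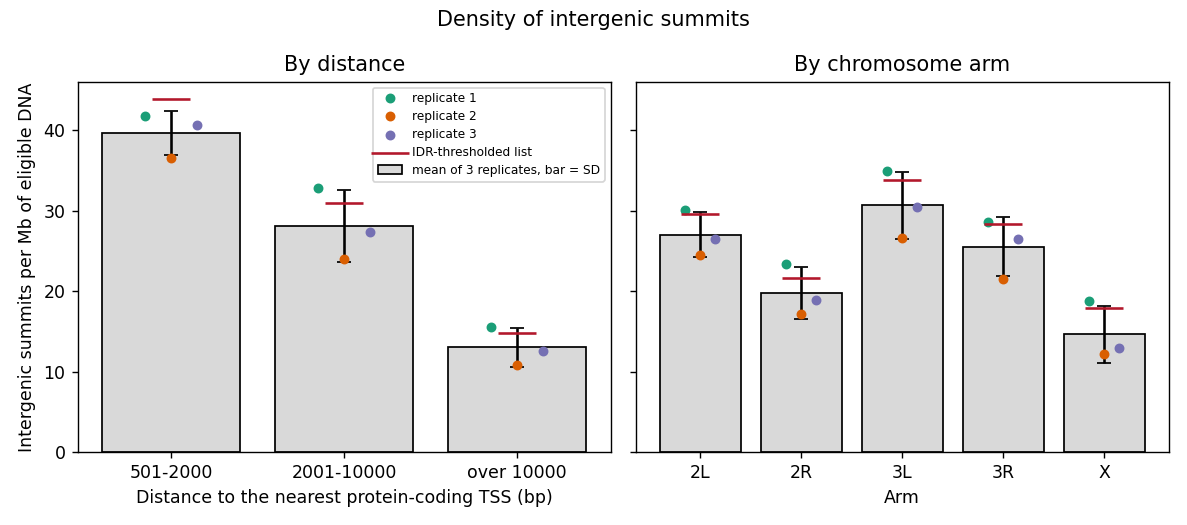
Intergenic summits per Mb of DNA where such a summit could fall, by distance to the nearest protein-coding TSS (left) and by arm (right), with bars for the mean of the top 5000 peaks of each replicate, error bars for the SD (n = 3), points for replicates and red lines for the combined list. The density is 39.6 ± 2.77, 28.1 ± 4.46 and 13.0 ± 2.41 per Mb from the nearest to the farthest class, and X has the lowest replicate mean, 14.6 ± 3.59.

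The peaks lay in a minority of the gaps between protein-coding genes. Of 5679 gaps with any base where such a summit could fall, 469 (8.26%) held at least 1. In 284 of these gaps there was only 1, and 617 of the 901 summits (68.5%) shared their gap with another. In 36 gaps there were 5 or more, 245 summits in all. Neighbouring summits of 1 gap were a median of 2401.5 bp apart. Gaps with a summit were longer, with a median of 11377 bp, than those without, with 1364.5 bp. How far length alone accounts for the clustering was not tested. By orientation of the flanking genes, gaps between divergent genes held 255 summits (31.2 per Mb), those between genes in tandem 462 (25.3 per Mb) and those between convergent genes 183 (24.2 per Mb).

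The richest gap, 47937 bp on 3L between hng3 and CG13898 (chr3L:755490-803426), held 15 summits with signals of 147 to 933, of which 10 were supported by all 3 replicates. The top 5000 peaks of the replicates placed 18, 13 and 13 summits there. Next came the 39695 bp between hry and SrpRbeta, which encodes a subunit of the signal recognition particle receptor, with 13 summits of 130.0 to 779 and 10, 12 and 10 in the replicates. The summit windows of this gap had a median GC content of 51.5%, against 31.2% to 32.7% in the other 4 of the 5 gaps drawn. The 21069 bp between Ids, a lysosomal sulfatase gene, and sty, which encodes the receptor tyrosine kinase antagonist sprouty, held 10 summits, and the replicates placed 10, 7 and 12 there. Its highest peak had signals of 236, 290.1 and 229. Between CG18404 and heca (headcase) there were 10 summits, 9 of them supported by all 3 replicates, and the replicates placed 10, 10 and 10 there. The gap between CG7320 and CheA75a, a gene of the CheA family of chemosensory proteins, held 9, with 8, 6 and 9 in the replicates. In each of these 5 gaps the counts differed by at most 5 between replicates. The gap between NijA and CG43245 tied for the last place, also with 9 summits. The replicates placed 14, 8 and 10 summits there, and its summit windows had a median GC content of 33.7%.

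**Figure D3:**
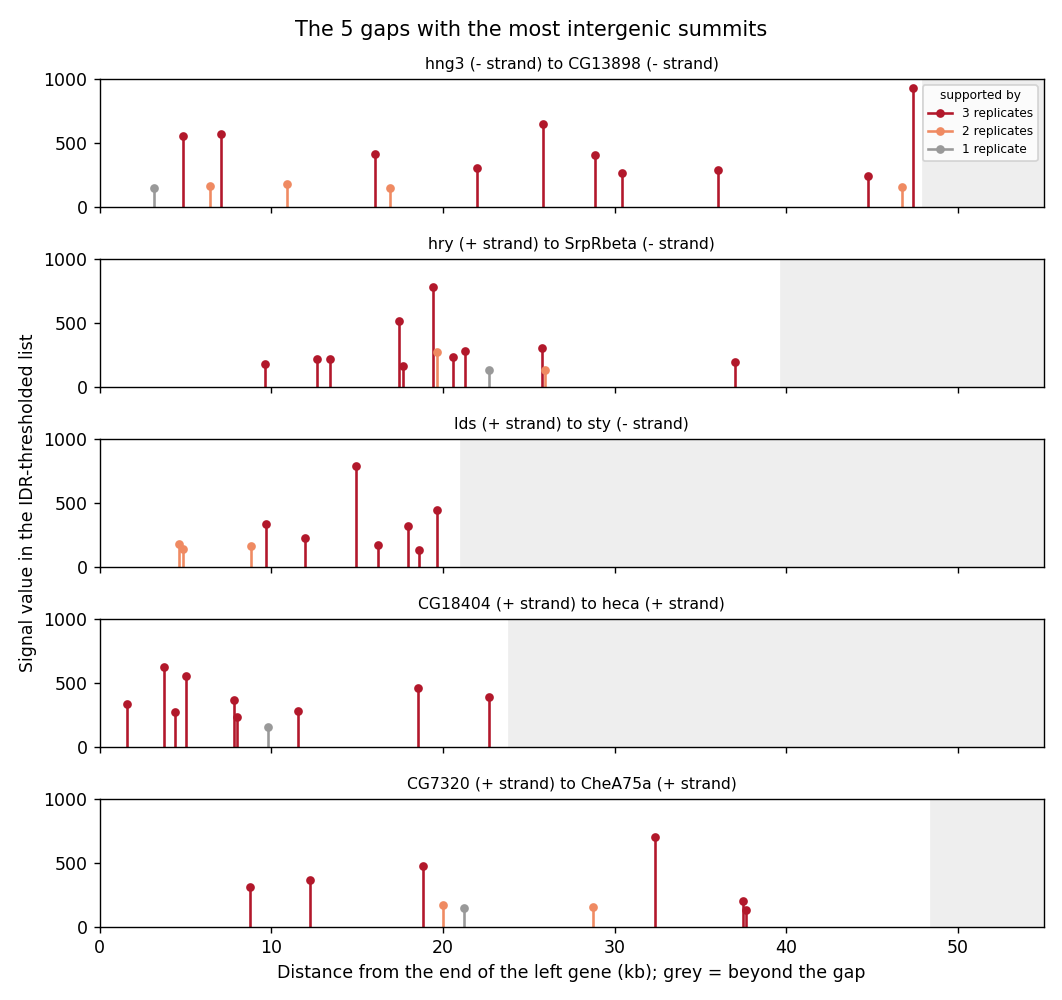
The 5 gaps with the most intergenic summits, drawn by distance in kb from the end of the left flanking gene, with the height of each line giving the signal value in the combined list and its colour the number of replicates that support it. The gaps hold 15, 13, 10, 10 and 9 summits from top to bottom, and the grey area lies beyond the gap. The gap between NijA and CG43245, also with 9, is not drawn.

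Half-sites were rare at intergenic summits. AGGTCA, searched on both strands, was within 50 bp of 29 of 901 summits (3.22%, exact 95% interval 2.17 to 4.59), against 19 flanks (2.11%), windows of the same length centred 500 bp towards lower coordinates. The difference did not pass the test (two-sided exact McNemar test, adjusted p = 1). With the flank taken towards higher coordinates it was 1.78 percentage points and did not pass either (exact McNemar test, adjusted p = 0.124). The half-site was at 5.35% of all arm summits. It was at 5.14% of intronic summits (odds ratio 0.614, intergenic over intronic; two-sided Fisher's exact test, adjusted p = 0.186) and at 5.98% of promoter summits (odds ratio 0.523, adjusted p = 0.0369). That last call was lost in each of 8 alternatives, among them every one that left out a replicate, though the odds ratio stayed between 0.429 and 0.664. In the replicates' own top 5000 peaks the share was 2.26%, 4.13% and 2.76% at intergenic summits, against 5.41%, 5.99% and 6.18% at promoter summits. The groups did not overlap in these 3 replicates. Flanks of the intergenic summits held the half-site at 2.04%, 1.85% and 1.88%, lower than the summits in each replicate.

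Pairs of half-sites, the form that COUP-TF receptors are known to bind, were rarer still, and at intronic and promoter summits too. Each kind of pair was at no more than 5 of 2395 intronic and 3 of 1774 promoter summits. No difference of intergenic summits from either class passed the threshold (two-sided Fisher's exact test). With 1 mismatch allowed, direct repeats with spacers of 0, 1, 2, 3 or 5 bases and the inverted repeat with a spacer of 1 were at 0 of 901 summits, where the exact 95% interval reaches 0.409%. Direct repeats with a spacer of 4 were at 2 summits. One was between CG12824 and Gapdh1, a glycolytic gene, with signals of 65.2, 145 and 67.7 in the replicates. The other was between the esterase genes alpha-Est9 and alpha-Est8, with 50.2, 60.0 and 27.2. Besides those whose windows are printed above, half-site peaks lay beside 18w, which encodes a Toll family receptor, and beside Eip75B, a nuclear receptor gene of the ecdysone response, where replicate 1 had no peak at the summit. The summit beside Eip75B was 143028 bp from the 5′ end of that gene, with the TSS of CG5290 nearest, at 9103 bp. By signal, the half-site share was 2.65%, 2.67%, 4.44% and 3.11% from the lowest to the highest group when the members were ordered by signal and cut at the quartiles, and the intervals overlapped.

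GATA sites, which GATA factors such as serpent of the fat body and blood bind, were at 187 intergenic summits (20.8%, exact 95% interval 18.2 to 23.6), against 84 flanks (9.32%). The site was only at the summit in 162 cases and only in the flank in 59 (two-sided exact McNemar test, adjusted p = 5.19e-11), and it was at 22.8% of all arm summits. In the replicates the share was 21.3% ± 1.72 at summits, against 10.2% ± 0.667 in flanks (mean ± SD, n = 3), higher at summits in 3 of 3. It was the only one of 19 motifs (5.26%) called against the flanks. Next came the forkhead core TAAACA, at 11.3% of summits and 8.21% of flanks (exact test, unadjusted p = 0.0292, adjusted p = 0.278). Intronic summits held GATA sites at 24.3% (odds ratio 0.818, exact test, adjusted p = 0.255) and promoter summits at 20.7% (odds ratio 1.00, adjusted p = 1).

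The same letters in reverse were also more frequent at summits than in flanks. AATAGA or AATAGT, the GATA letters read backwards and chosen after the data were seen, were at 154 intergenic summits (17.1%), against 64 flanks (7.10%; two-sided exact McNemar test, p = 1.22e-10). At the summits themselves, the GATA site at 20.8% did not differ from its reversal at 17.1% past the threshold (exact McNemar test, adjusted p = 0.0758). In the replicates, GATA sites were at 19.9%, 23.2% and 20.8% of intergenic summits and the reversal at 16.8%, 12.3% and 14.2%, with GATA higher in each. The call depended on the setting: the difference of 3.66 percentage points was 7.99 with windows of 100 bp on each side (exact test, unadjusted p = 0.000348), 5.47 without replicate 1 (unadjusted p = 0.0305) and 5.48 without replicate 3 (unadjusted p = 0.0243). At intronic summits the shares were 24.3% for GATA and 13.7% for the reversal (exact test, adjusted p = 3.05e-20), and at promoter summits 20.7% and 11.7% (adjusted p = 1.21e-12). The half-site and its reversal were at 3.22% and 4.55% of intergenic summits (exact test, adjusted p = 0.182), at 5.14% and 2.88% of intronic ones (adjusted p = 0.000153) and at 5.98% and 3.44% of promoter ones (adjusted p = 0.00073). With windows of 100 bp on each side the half-site was less frequent than its reversal at intergenic summits with a difference of -4.77 percentage points (exact test, unadjusted p = 0.000192). Whether these contrasts differ between classes was not tested.

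The other motifs were no more frequent at intergenic summits than in flanks by this test. GAGAGA was at 4.00% of summits and 3.33% of flanks, the AP-1 site TGANTCA at 1.89% of both, the heat shock core GAANNTTC at 2.55% of both, the E-box CACGTG at 0.999% and 0.777%, and the Zelda site CAGGTAG at 0.444% and 0.777%. ACCGGT, bound by Grainyhead, and TGACGTCA, bound by CREB factors, were at 2 summits each. The DRE motif TATCGATA, known from promoters of housekeeping genes, was at 0 intergenic summits, against 19 of 1774 promoter summits (two-sided Fisher's exact test, adjusted p = 0.0306). That call was lost with windows of 25 bp on each side, with a limit of 1000 bp, above the median signal and whenever 1 replicate was left out. The reversed direct repeat, searched as a control, was at 0. A match is only a run of letters, and its absence from these windows says nothing of the factor.

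Intergenic summits were poor in G and C beside richer flanks. The median GC content was 32.7% at intergenic summits and 44.6% in their flanks, while intronic summits had 36.6% and flanks of 42.6%, and promoter summits 40.6% and flanks of 43.6%. GC below 30% was found at 36.8% of intergenic, 30.1% of intronic and 23.4% of promoter summits. The summit was poorer than its flank in 636 of 901 intergenic cases (70.6%, exact 95% interval 67.5 to 73.5). Against 62.6% of intronic summits the odds ratio was 1.43 (two-sided Fisher's exact test chosen after the data were seen, adjusted p = 1.71e-05), and against 57.0% of promoter summits it was 1.81 (adjusted p = 1.69e-11). In the replicates the share was 72.3%, 63.5% and 72.9% for intergenic summits, against 65.2%, 57.1% and 65.0% for intronic ones and 55.5%, 57.0% and 65.3% for promoter ones. The intergenic share was the highest in each replicate, but the ranges of the classes overlapped. Low GC and the GATA letters, which are rich in A and T, were both more frequent at summits, and the part of GC in the GATA excess was not tested beyond the reversed letters.

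**Figure D4:**
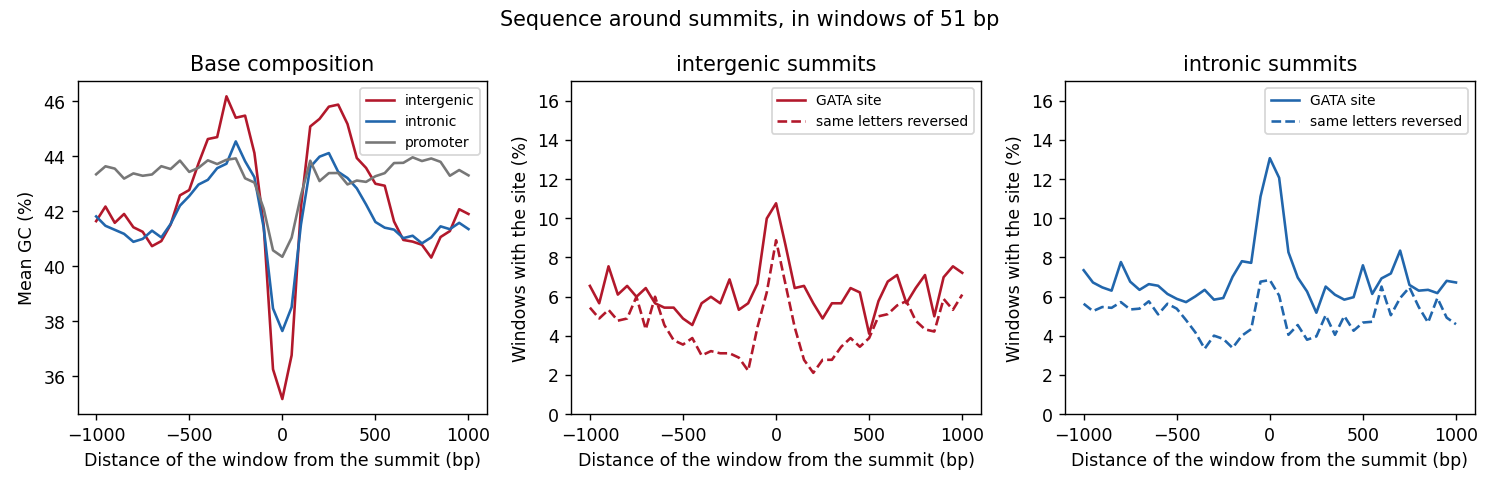
Mean GC content (left) at intergenic, intronic and promoter summits, and share of 51 bp windows with a GATA site (solid) or the same letters reversed (dashed) at intergenic (middle) and intronic (right) summits, by distance from the summit in bp. The dip in GC is deepest for intergenic summits, where both curves for letters peak at the summit, and at intronic summits the solid curve stands well above the dashed one.

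The genes beside intergenic peaks were described by 10 lists, as counts with no test. A gene was beside a peak where it bordered the gap that held it. Of 13968 protein-coding genes 845 (6.05%) were, and the median gene bordered 0.075 kb of DNA where an intergenic summit could fall. Of 96 developmental transcription factor genes 40 (41.7%) were beside a peak, with a median of 13.6 kb of such DNA. That list has the highest median. Signalling genes had a median of 1.08 kb and a share of 27.5%, and cuticle genes 1.13 kb and 7.44%. More than 10 kb of such DNA lay beside 16 of 51 signalling genes and 11 of 121 cuticle genes. The part of gap size in the shares was not tested. Among the genes with more than 10 kb of such DNA beside them, 35 of 56 developmental transcription factor genes bordered a peak, 4 of 5 nuclear receptor, 4 of 4 ecdysone response, 12 of 16 signalling and 3 of 4 cell death genes. So did 2 of 4 fat body, 2 of 2 glycolysis, 2 of 11 cuticle and 8 of 31 chemosensory genes, and 483 of 1592 among all protein-coding genes.

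Among these transcription factor genes, ato had the highest peak (1237), followed by C15, a homeobox gene of the leg, with 196, 363 and 255 in the replicates. The gaps on both sides of hry held 18 summits, of which the highest had 218, 351 and 206. The peak 1326 bp upstream of srp, the GATA factor gene serpent, had 129.9, 263 and 168. Ranks in the lists of replicates 1, 2 and 3 were 148, 44 and 130 for the ato peak and 434, 207 and 220 for C15. They were 352, 224 and 361 for the hry peak and 947, 472 and 542 for srp. Signal values were not put on 1 scale between replicates, so the higher values in replicate 2 are not read as stronger binding. Of 21 nuclear receptor genes 7 were beside a peak, with 3.17 kb as the median DNA. The highest lay beside knrl (141, 109 and 121) and kni (131, 111 and 89.7), which encode knirps-type zinc finger proteins, and beside the orphan receptor genes Eip78C and tll, with combined values of 286 and 263. The knrl and kni summits were 64088 and 46243 bp from the 5′ ends of these genes. Their nearest TSSs were those of Rcd2 (16154 bp) and CG13251 (11936 bp). For the other 2 the nearest TSS was that of Eip78C (1529 bp) and of tll (8438 bp). The svp gene itself bordered 1 peak, past its 3′ end and upstream of CG4066, with a combined value of 181, values of 96.7 and 42.2 in replicates 2 and 3, and no peak there in replicate 1.

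Genes of hormone response and of cell death were also among the neighbours. Of 24 ecdysone response genes 7 bordered a peak (median DNA 2.02 kb). Eip93F, a transcription factor gene of metamorphosis, bordered 6, of which the highest, 7581 bp upstream, had 179, 159 and 179.6 in the replicates. Eip63E, a cyclin-dependent kinase gene, and ImpE2, an ecdysone-induced gene of imaginal discs, shared a gap with a peak of 303, and Eip78C had the one named above. Of 16 cell death genes 5 bordered a peak (median DNA 0.951 kb). Next to hid, a pro-apoptotic gene, 6 summits were found, the highest with 345, 259 and 235 in the replicates. The Bcl-2 family gene Debcl bordered a peak of 313, and the pro-apoptotic genes rpr and skl shared a gap with a single peak of 159.6. Of 51 genes of signalling ligands and receptors 14 bordered a peak (median DNA 1.08 kb). The highest were the peak of 503 between upd1 and upd3, ligands of the JAK/STAT pathway, the peak of 486 beside ptc, the hedgehog receptor gene, and the peak of 425 beside Wnt10.

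Metabolic, cuticle, sensory and heat shock genes were counted in the same way. Of 25 fat body and lipid storage genes 4 did (16.0%, exact 95% interval 4.54 to 36.1; median DNA 0.321 kb). These were Fbp1, the receptor for larval serum proteins (383), the larval serum protein genes Lsp1beta (343) and Lsp2 (192), and Apoltp, a lipid transfer particle gene (255). Of 18 glycolysis and gluconeogenesis genes 3 did (median DNA 0.0495 kb): Gapdh1 (275), Ldh, lactate dehydrogenase (258), and Hex-A, a hexokinase gene (207). Of 121 cuticle protein genes 9 did (7.44%; median DNA 1.13 kb), with peaks of 388 beside Cpr49Ac, 324 between Cpr72Ea and Cpr72Eb, and 201 beside Cpr51A. Of 179 chemosensory receptor genes 14 did (7.82%; median DNA 0.630 kb). The highest lay by Gr93d (755), with 248 and 123 in replicates 2 and 3 and no peak at the summit in replicate 1, and by Or30a (606). Then came peaks in gaps bordered by Or67d, the receptor for a male pheromone (519), and by Gr93a (473). The peak in the Or67d gap lay 108128 bp from the 5′ end of that gene. Its nearest TSS, that of CG12362, was 31486 bp away. Of the 179 genes 7 (3.91%) had the nearest TSS to a summit, against 3.73% of all protein-coding genes. None of the 8 small heat shock genes bordered a peak (0%; median DNA 0.062 kb), and the exact 95% interval for a list of this size reaches 36.9%. The intervals of all 5 of these lists (fat body, glycolysis, cuticle, chemosensory and small heat shock) include the 6.05% of all genes.

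**Figure D5:**
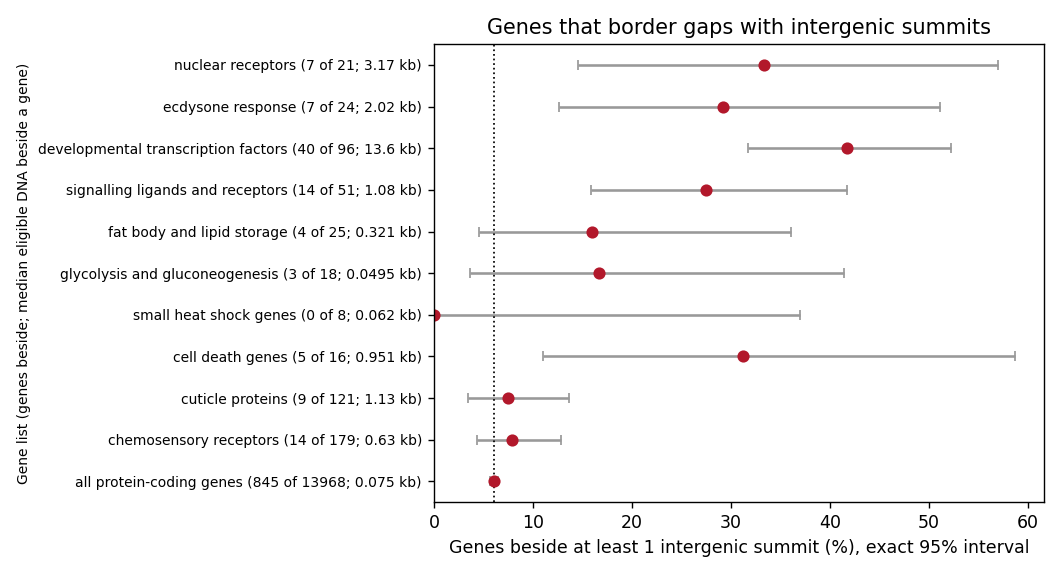
Share of the genes of each list that border a gap with at least 1 intergenic summit, with exact 95% intervals over genes and, in brackets, the counts and the median DNA beside a gene where such a summit could fall. The dotted line marks the 6.05% of all protein-coding genes, and developmental transcription factors have both the highest share, 41.7%, and the most DNA, 13.6 kb.

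Some intergenic summits lay close to the start of a non-coding gene. Summits inside such genes were not members by the rule, so these counts cover only the DNA outside them. The share of the available DNA that lies close to a non-coding start was not computed. Within 500 bp of such a start there were 61 (6.77%), of which 55 were at genes annotated as ncRNA, 5 at tRNA genes and 1 at snRNA:U1:21D, a spliceosomal RNA gene 28 bp from the summit. That peak, chr2L:901454-901909, is the one past the end of Lsp1beta and had 111, 132 and 91.2 in the replicates. The highest tRNA peak lay 282 bp from tRNA:Ala-TGC-2-1 with a combined value of 446. Of 260 microRNA genes found by name none started within 500 bp of a summit, and 5 summits lay within 2000 bp of one. Besides mir-279 these were at mir-375 (714 bp), with 81.0, 97.5 and 90.9 in the replicates, mir-14 (978 bp), with 49.5, 63.8 and 40.6, mir-87 and mir-282.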

How the data were processed

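Anti-GFP ChIP-seq of 3 biological replicates of svp-eGFP white prepupae was used as peak lists on dm6. Every replicate list holds 30000 peaks, called, per the deposited manifests, from its own alignments and 1 control file shared by the replicates. The IDR-thresholded list combines the lists per replicate and the pooled one. Which aligner, caller, read numbers and IDR cut-off were used was not given in the sources used here, so depth is unknown, and exact 95% intervals cover counting error over peaks only. Signal values and −log10 q-values are the authors' deposited values. Signal values ranked peaks within 1 list, and the q-values were not used in any test. The lists have no header, and the unit of column 9 was read from the narrowPeak format.

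The summit is the peak start plus the deposited offset, counted from 1. Genes and TSSs came from the Ensembl 115 annotation (FlyBase 6.54) and sequence from RefSeq release 6, after checking that no peak passed an arm's end. Classes were promoter, intergenic, exonic and intronic, in that order of assignment. Gaps were taken between protein-coding genes, where gaps between genes of any biotype had been planned. Flanks, windows of 101 bp and the 19 motifs were compared by exact McNemar tests, and classes of summits by Fisher's exact tests (38 motif tests and 4 support tests), two-sided, with Benjamini-Hochberg adjustment within each family and a threshold of 0.05. The letters of the GAGA, Zelda, AP-1 and DRE motifs were set after the data were seen. The tests of GC and of reversed letters, and the microRNA search, were added after seeing the data.

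Members and gene lists were chosen with earlier results of these data known, and 4 list symbols matched no gene. Text names follow a rule: flanking genes of the 20 highest peaks supported by all 3 replicates, of the 3 highest per distance class, of the farthest peak and of the 5 richest gaps, and up to 4 genes per list. Beyond it, svp, the genes at the next farthest peaks, half-site peaks at 18w and Eip75B, peaks with 2 half-sites and those at non-coding genes were named after their values were seen. Python 3.11.15, numpy 2.4.6, scipy 1.17.1 and pandas 2.3.3 were used, and the steps were tested on simulated data. The dm3 lists and the pooled list were not used here. Alternatives changed the distance limit, the gene bodies, summits per interval, the peak threshold, the support rule, the window, the flank, the half-site and the replicates.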

Additional observations from a re-analysis of the deposited data

How the results depend on the processing

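The intergenic share of 16.6% was 19.5% with a limit of 250 bp and 19.1% when only protein-coding bodies barred membership. By construction the number of summits was 409 above the median signal, and requiring support by both other replicates gave 567 to 651 when 1 replicate was left out. Against other arm summits, the odds ratio for support by all 3 replicates (1.07) was 2.79 above the median signal, 1.94 with the top 10000 peaks, 2.58 with all 30000, and 0.825 to 1.41 with 1 replicate left out. Against intronic summits (1.08) it was 2.23, 1.49, 1.85, and 0.895 to 1.26. The half-site odds ratio against promoter summits (0.523) lost its call with limits of 250 bp (0.597) and 1000 bp (0.536), above the median signal (0.664), with 25 bp windows (0.475), with the longer half-site AAGGTCA (0.522) and with 1 replicate left out (0.429 to 0.534). The odds ratios against intronic summits passed the threshold with 100 bp windows, at 0.562 for the half-site and 0.756 for GATA. For GATA against promoter summits (1.00, no call) values below 1 were 0.828 with a limit of 1000 bp, 0.902 above the median signal, 0.896 with 100 bp windows and 0.876 to 0.987 with 1 replicate left out. The difference in DRE sites, intergenic minus promoter (-1.07 percentage points), lost its call with a limit of 1000 bp (-0.846), above the median signal (-0.511), with 25 bp windows (-0.620) and with 1 replicate left out (-0.801 to -0.430). The difference of GATA from its reversal at intergenic summits (3.66 points, no call) passed the threshold when only protein-coding bodies barred membership (5.12), with 100 bp windows (7.99), without replicate 1 (5.47) and without replicate 3 (5.48), and was 2.76 without replicate 2, with no call. That of the half-site (-1.33, no call) was -4.77 with 100 bp windows, past the threshold, and 0.244 above the median signal. GATA against flanks and GC below the flank against both other classes kept their calls in all of these. The cause of these shifts was not tested. No paired analysis was possible because there is 1 group. Depth is unknown, no GFP-free sample is used, mappability was not taken into account, and 1 summit position per peak limits the placing of motifs.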
